A study of Mus musculus with 4 samples.

Results

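Pou5f1, Nanog, Sox2, Sall4, Zfp42, Utf1, Lin28a, Fbxo15, L1td1 and Eras are 10 genes whose transcripts mark mouse embryonic stem cells (ESCs), and their signal was followed in ESC lines with and without Dppa2. Members were found by matching the accession of each array probe to these symbols, with no use of the measured values. A total of 9 of 41174 gene probes matched, and they covered 8 of the 10 genes: Sall4 had 2 probes and the other 7 genes had 1 each. No probe matched Nanog or L1td1, which are not analysed here. All 9 probes were well above background on all 4 arrays, so no member was lost to the filter on dim probes, and 8 of the 21639 genes and transcripts tested were members.

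RNA came from 4 ESC lines, with 1 one-colour (Cy3) whole-genome array per line, and no spot of a member was saturated. The 2 KO lines were 15-2-/- for ECAT15-2, the gene now called Dppa2, and also homozygous for a conditional targeted allele of its neighbour ECAT15-1, now Dppa4 (15-1CT/CT). The 2 WT lines were 15-2+/+ and 15-1+/+. All 4 lines were derived from blastocysts of intercrossed 15-1+/CT, 15-2+/- mice of a mixed 129Sv and C57/BL6 background, with a further cross to Cre or FLPe transgenic mice of unknown background. KO 1 and WT 1 shared mother 1046, and KO 2 and WT 2 shared mother 875. Before RNA was taken, each line spent 3 days on gelatin-coated dishes in medium with 15% serum and LIF. A KO minus WT difference therefore compares these compound genotypes, and the differences within each mother's pair are given beside it. In bulk RNA, fewer cells of a type and less RNA per cell cannot be told apart.

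Pluripotency rests on a small circuit of transcription factors that bind enhancers together and maintain each other's genes. Oct4 (the protein of Pou5f1) and Sox2 bind composite DNA sites as a pair, and Nanog and Sall4 share many of their targets. Zfp42 (Rex1), Utf1 and Fbxo15 are classic target genes used as reporters of the undifferentiated state. Lin28a and L1td1 encode RNA-binding proteins, and Eras encodes a Ras-like protein that promotes ESC growth. Fbxo15, Nanog, Eras and L1td1 belong to the same series of ESC-associated transcripts (ECAT) that gave Dppa2 and Dppa4 their first names.

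The arrays gave the following background. Dppa2 had 7.05 and 7.12 log2 signal in KO lines, against 12.09 and 12.03 in WT lines, and fell by 4.97 on the log2 scale (SE 0.12, n = 2 per group, limma adjusted p = 0.00890; 0.0790 with the mother as a block). Of all genes tested, 0.176% were higher and 1.67% lower in KO lines at a limma adjusted p under 0.05, and no gene passed with the mother as a block, nor when WT 1, WT 2 or KO 2 was left out. The median KO minus WT difference over all genes was 0.10 on the log2 scale, with quartiles of -0.27 and 0.33. Probes of 4 Y-linked genes were above background in WT 1 (6 of 6 probes) and at or near the detection floor in the other lines (0 of 6 probes in each of KO 1, KO 2 and WT 2). Eras, which is X-linked, is therefore also given within the pair of mother 875. On each array, repeat spots of other probes in the members' signal range differed by a median SD of 0.046 log2 units, and by 0.21 at most (216 probe and array values), while every member probe had 1 spot per array.

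Seen together, 7 of the 8 measured genes had a higher mean signal in KO lines, and Fbxo15 did not. Eras, Sox2 and Utf1 had the largest differences that were alike in both pairs, at 2.45-fold, 1.80-fold and 1.66-fold. Pou5f1 and Sall4 differed by 1.32-fold and 1.37-fold, and Lin28a and Fbxo15 by 1.12-fold and 0.979-fold. None passed limma's test over all genes (0 of 8 at an adjusted p under 0.05, with adjusted p of 0.0602 to 0.914). At an unadjusted p under 0.05, 4 of 8 were higher and 0 lower, where 11.1% of all genes tested were higher and 12.4% lower. Within both pairs 7 of 8 were higher and 0 lower, where the shares of all genes were 46.8% and 29.3%. Both KO lines lay above both WT lines for 5 of 8 and below them for 0, where the shares of all genes were 37.7% and 24.5%. The median difference of the 8 was 0.59 on the log2 scale, or 0.50 between KO 1 and WT 1 (mother 1046) and 0.51 between KO 2 and WT 2 (mother 875). The genes were listed with earlier results of these arrays known, so these shares describe them and are not independent evidence.

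**Figure D1:**
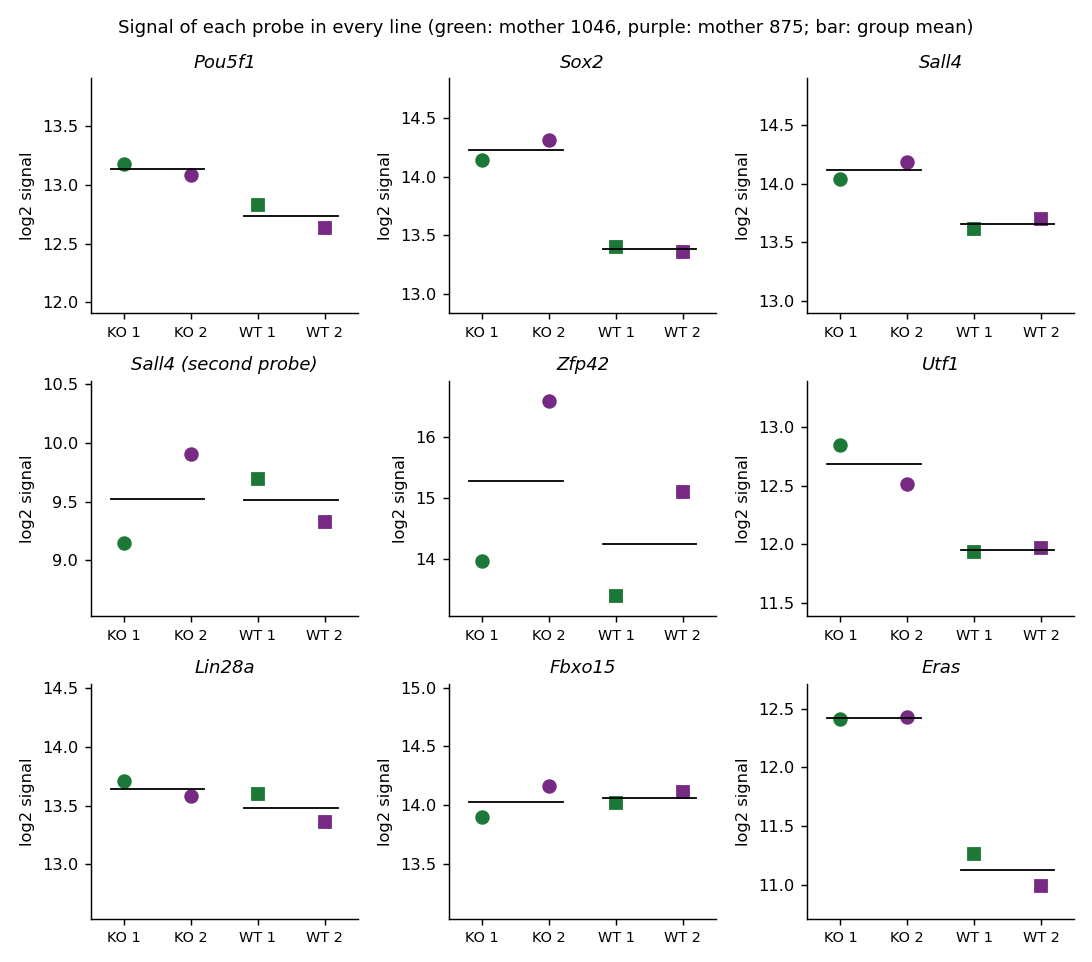
Log2 signal (75th percentile scaling) of each of the 9 member probes in the lines KO 1, KO 2, WT 1 and WT 2; circles are KO and squares WT lines, green is mother 1046 and purple mother 875, and bars are group means. Each panel has its own axis, spanning at least 2 log2 units. Eras, Sox2, Utf1, Sall4 (brighter probe) and Pou5f1 separate the genotypes, whereas Zfp42, Fbxo15 and Lin28a separate the mothers. The gap is widest for Zfp42, where KO 2 minus KO 1 is 2.63, against 0.27 for Fbxo15 and -0.13 for Lin28a.

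Among the core transcription factors, Pou5f1, whose POU-domain protein Oct4 is required for pluripotent cells to form, had 13.18 and 13.09 log2 signal in KO lines, against 12.83 and 12.64 in WT lines. Both KO lines were above both WT lines, by somewhat more than the WT lines differed from each other. The mean difference was 0.40 (SE 0.14, 95% interval -0.01 to 0.81, n = 2 per group, limma adjusted p = 0.217). The pair differences were 0.35 and 0.45 for mothers 1046 and 875. Of all genes tested, 19.9% had a higher difference than Pou5f1.

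Sox2, the HMG-box partner of Oct4, had 14.14 and 14.32 log2 signal in KO lines, against 13.40 and 13.36 in WT lines. The KO lines were both higher, and the gap between the genotypes was several times the gap between lines of 1 genotype. Its mean difference was 0.85 (SE 0.14, 95% interval 0.46 to 1.24, n = 2 per group, limma adjusted p = 0.0885), with pair differences of 0.74 and 0.96. Its interval lay above 0, but it did not pass after adjustment over all genes, and 5.48% of genes had a higher difference.

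Sall4, a zinc-finger factor that interacts with Oct4 and Nanog, was read by 2 probes annotated to the same transcript. The brighter probe, which stands for the gene, had 14.04 and 14.18 log2 signal in KO lines, against 13.61 and 13.70 in WT lines. Here the genotypes did not overlap, and the difference was 0.46 (SE 0.13, 95% interval 0.07 to 0.84, n = 2 per group, limma adjusted p = 0.178), nearly equal in both pairs (0.43 and 0.48). The other probe gave 9.15 and 9.91 in KO lines and 9.69 and 9.33 in WT lines. In it the groups overlapped and the pair differences were opposed, -0.55 for mother 1046 and 0.58 for mother 875, with a mean of 0.016 (95% interval -0.92 to 0.95, limma adjusted p over all probes = 0.981). The 2 probes thus disagree, and averaged they gave 0.24.

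The promoters of Eras, Sox2, Utf1 and Zfp42 are shown here because these 4 members had the largest mean differences between the genotypes. Each sequence is the RefSeq window of GRCm38.p6 from 250 bases before to 50 bases after the annotated start, in the direction of the gene. Capitals mark the motifs searched on both strands: the POU octamer ATGCAAAT, the SOX core CATTGT, the GC box GGGCGG, the TATA motif TATAAA and the E-box CACGTG. Motifs may overlap each other.

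Eras, chrX:7928558-7928857, minus strand: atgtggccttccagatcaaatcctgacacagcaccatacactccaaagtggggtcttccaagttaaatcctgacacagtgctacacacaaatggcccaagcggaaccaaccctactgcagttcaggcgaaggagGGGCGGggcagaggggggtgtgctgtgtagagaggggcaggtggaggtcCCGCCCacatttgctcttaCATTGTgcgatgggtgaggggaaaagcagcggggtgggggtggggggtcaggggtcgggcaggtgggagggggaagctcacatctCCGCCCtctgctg

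Sox2, chr3:34649745-34650044, plus strand: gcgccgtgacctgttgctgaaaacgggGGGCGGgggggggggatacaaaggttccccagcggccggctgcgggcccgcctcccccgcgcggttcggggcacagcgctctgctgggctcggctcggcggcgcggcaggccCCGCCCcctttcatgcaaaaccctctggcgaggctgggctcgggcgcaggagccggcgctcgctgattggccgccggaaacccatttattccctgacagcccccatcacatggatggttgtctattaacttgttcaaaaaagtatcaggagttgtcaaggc

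Utf1, chr7:139943606-139943905, plus strand: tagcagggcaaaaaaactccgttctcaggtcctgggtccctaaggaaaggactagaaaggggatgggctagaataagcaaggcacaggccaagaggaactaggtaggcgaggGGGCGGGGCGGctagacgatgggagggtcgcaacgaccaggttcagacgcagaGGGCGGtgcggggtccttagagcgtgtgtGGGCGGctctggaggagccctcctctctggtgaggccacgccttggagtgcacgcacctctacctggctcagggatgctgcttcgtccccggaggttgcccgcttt

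Zfp42, chr8:43306960-43307259, minus strand: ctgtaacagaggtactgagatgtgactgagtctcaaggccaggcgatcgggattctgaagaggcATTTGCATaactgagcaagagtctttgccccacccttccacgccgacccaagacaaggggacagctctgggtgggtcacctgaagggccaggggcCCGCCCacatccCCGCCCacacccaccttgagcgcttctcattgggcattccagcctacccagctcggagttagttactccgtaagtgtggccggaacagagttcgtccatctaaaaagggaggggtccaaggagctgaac

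Of these 4 windows, that of Zfp42 held the octamer, in the opposite orientation and 186 bases upstream of the start, and 1.74% of all 32851 promoter windows held it. The SOX core was found in the window of Eras, 48 bases upstream, and in 12.6% of all windows. GC boxes were found in all 4, with 3 for Eras, 2 for Sox2, 4 for Utf1 and 2 for Zfp42, against 35.7% of all windows with at least 1. None of the 4 held the TATA motif or the E-box, which 13.6% and 7.15% of all windows held. The Sox2 window was the richest in CpG, with 27 CpG dinucleotides, against 17 for Utf1, 11 for Zfp42 and 8 for Eras and a median of 7 over all windows. The matches describe these letters only. RefSeq windows matched 8 of the 10 genes, and Sall4 and Fbxo15 had none in the table.

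Among the classic target genes, Utf1, which encodes a chromatin-associated protein of undifferentiated cells and carries an Oct4-Sox2 enhancer, had 12.85 and 12.51 log2 signal in KO lines, against 11.93 and 11.97 in WT lines. Both KO lines were above both WT lines, and KO 1 was the highest. The difference was 0.73 (SE 0.17, 95% interval 0.24 to 1.22, n = 2 per group, limma adjusted p = 0.138), with pair differences of 0.92 for mother 1046 and 0.55 for mother 875.

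Fbxo15, an F-box protein gene that served as an early reporter of reprogramming and is itself dispensable for ESCs, had 13.89 and 14.16 log2 signal in KO lines, against 14.01 and 14.11 in WT lines. The groups overlapped, with the KO lines at both ends of the range. Its difference was -0.03 (SE 0.16, 95% interval -0.49 to 0.42, n = 2 per group, limma adjusted p = 0.914). The sign turned with median centring (0.14), without WT replicate 2 (0.016) and without KO replicate 1 (0.10).

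Zfp42, whose zinc-finger protein Rex1 is lost early as ESCs differentiate, had 13.97 and 16.60 log2 signal in KO lines, against 13.39 and 15.10 in WT lines. The lines of mother 875 (KO 2 and WT 2) were the highest and the lines of mother 1046 the lowest, in both genotypes, so the genotype groups overlapped. KO 2 was 6.19-fold above KO 1, and WT 2 was 3.27-fold above WT 1. Within each pair the KO line was higher, by 0.57 for mother 1046 and 1.49 for mother 875, but the mean difference of 1.03 had an SE of 1.16 (95% interval -2.28 to 4.35, n = 2 per group, limma adjusted p = 0.600). With the mother as a block the SE was 0.31 and the limma adjusted p 0.218. Without KO replicate 2 the difference was -0.28, and without KO replicate 1 it was 2.35.

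The other 7 measured genes differed between the mothers by at most 0.33 in KO lines and 0.27 in WT lines. A mother difference of at least 2-fold in the same direction in both genotypes was seen in 1 of the 8 genes, Zfp42, and in 1.15% of all genes tested. A total of 59 genes, Zfp42 included, differed the same way between the mothers in both genotypes by at least the difference of Zfp42 in WT lines. Zfp42 lies on chromosome 8, and the genes of that chromosome were shifted as well. The median of KO 2 minus KO 1 over its 750 tested genes was 0.18 and that of WT 2 minus WT 1 was 0.43. On the 19 other chromosomes with at least 100 tested genes these medians lay between -0.05 and 0.02 in KO lines and between -0.04 and 0.03 in WT lines. The part of this shift in the Zfp42 values was not tested. Zfp42 exceeded the chromosome median by more than 1 log2 unit in both genotypes.

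**Figure D2:**
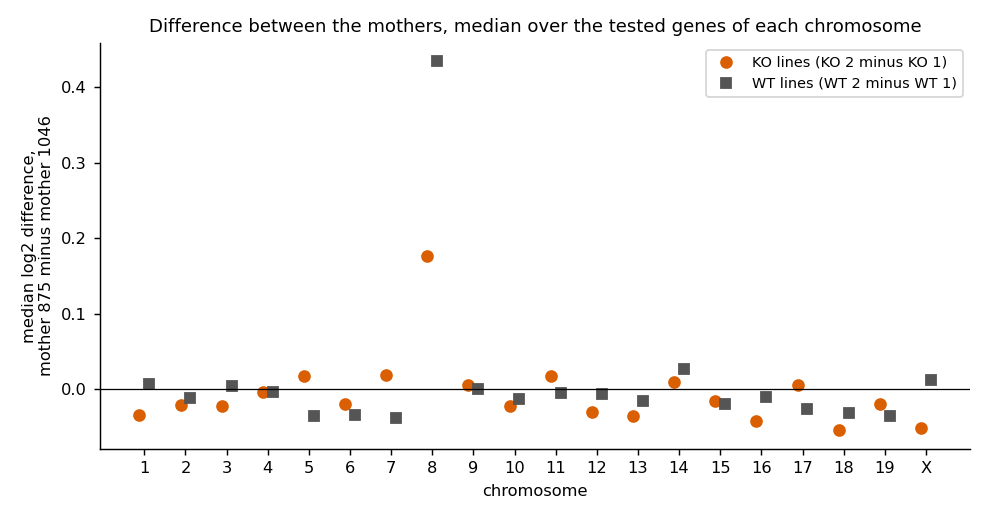
Median log2 difference between lines of mother 875 and lines of mother 1046 over the tested genes of each chromosome, separately in KO lines (circles, KO 2 minus KO 1) and WT lines (squares, WT 2 minus WT 1). Chromosome 8, which carries Zfp42, stands at 0.18 in KO and 0.43 in WT lines, and all others lie between -0.05 and 0.03.

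The tested genes next to Zfp42 in the RefSeq order did not all share its pattern. Triml1, adjacent on one side, had 12.56 and 12.45 log2 signal in KO lines, against 11.51 and 11.48 in WT lines, so it separated the genotypes (difference 1.01, limma adjusted p = 0.0638) and not the mothers. Frg1, beyond it, had 10.92 and 12.15 in KO lines, against 10.59 and 12.10 in WT lines, and followed the mothers (1.23 in KO and 1.51 in WT lines). Adam26a, adjacent on the other side, had 4.94 and 4.88 in KO lines, against 4.84 and 4.60 in WT lines, with a KO minus WT difference of 0.19 (limma adjusted p = 0.473) and mother differences of -0.06 in KO and -0.24 in WT lines. Fat1, beyond Adam26a, had mother differences of 0.15 in KO and 0.44 in WT lines, close to the chromosome medians. Triml1, Frg1, Adam26a and Fat1 were singled out after their values were seen.

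Lin28a, an RNA-binding protein gene that blocks the maturation of let-7 microRNAs, had 13.71 and 13.58 log2 signal in KO lines, against 13.60 and 13.36 in WT lines. The groups overlapped, since WT 1 lay above KO 2. The difference was 0.17 (SE 0.15, 95% interval -0.28 to 0.61, n = 2 per group, limma adjusted p = 0.535), close to the median of all genes, with pair differences of 0.11 and 0.22. L1td1, the other RNA-binding member, had no matched probe.

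Eras, the Ras-like gene on the X chromosome, had 12.41 and 12.43 log2 signal in KO lines, against 11.26 and 10.99 in WT lines. The KO lines nearly coincided and lay more than 1 log2 unit above both WT lines. Its difference of 1.30 was the largest of the 8 (SE 0.15, 95% interval 0.85 to 1.74, n = 2 per group, limma adjusted p = 0.0602, or 0.119 with the mother as a block). Only 2.03% of genes had a higher difference. Eras was the 1 member at least 2-fold higher within both pairs (2.23-fold and 2.71-fold), as were 1.56% of all genes, and 0 of the 8 were at least 2-fold lower, as were 6.94%. It passed the threshold in 3 of 15 other settings, given in the closing section.

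The pair of mother 875, in which neither line had Y-linked signal, gave an Eras difference of 1.44, against 1.15 in the pair of mother 1046, in which WT 1 did. Over the 495 tested X-linked genes the median KO minus WT difference was -0.04. Of the 4 tested genes on each side of Eras, none passed (limma adjusted p of 0.118 to 0.823). Pcsk1n and Hdac6, the adjacent ones, differed by 0.73 and 0.52, and Gata1, next to Hdac6, by 1.45, more than Eras. Timm17b, Pqbp1 and Slc35a2 differed by 0.27, 0.20 and 0.06, and Glod5 and Suv39h1 by -0.49 and -0.61.

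**Figure D3:**
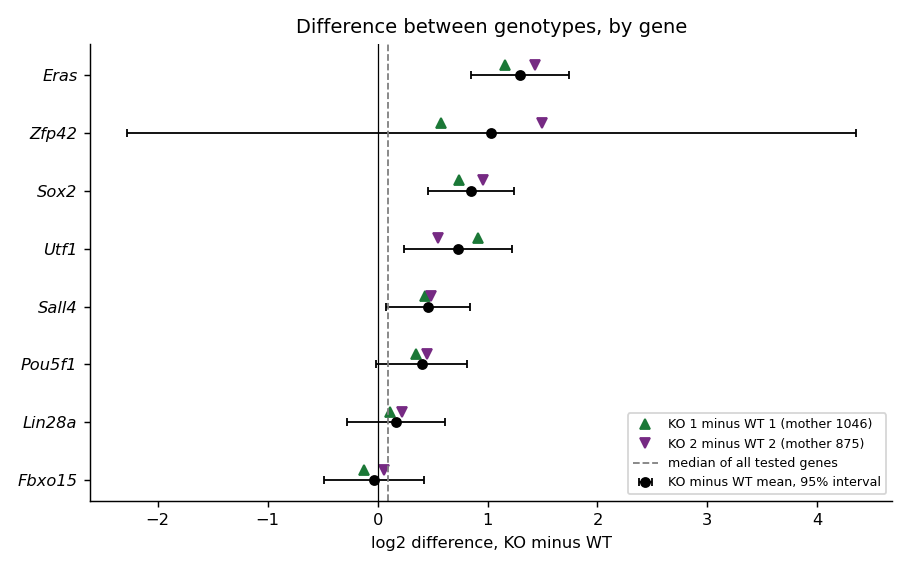
KO minus WT log2 difference of the 8 measured genes; black points are means with 95% intervals from limma (n = 2 per group), and triangles are the differences within the pairs of mother 1046 (green) and mother 875 (purple). The intervals of Eras, Sox2, Utf1 and Sall4 lie above 0, and that of Zfp42 runs from -2.28 to 4.35.

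The wider pluripotency network was read from a list of 25 further factors and markers, of which 23 were tested. In limma 0 rose, 0 fell and 23 did not pass. At an unadjusted p under 0.05 in limma, 12 were higher and 0 lower, where 11.1% of all genes were higher and 12.4% lower. Both KO lines were above both WT lines for 21 of 23 and below them for 0, where the shares of all genes were 37.7% and 24.5%. The median difference was 0.72, against 0.10 over all genes. These shares describe the list and are not independent evidence. Esrrb, an orphan nuclear receptor gene of the naive circuit, had 14.25 and 14.42 log2 signal in KO lines, against 13.10 and 12.46 in WT lines (difference 1.56, limma adjusted p = 0.0971). Nr0b1, an X-linked nuclear receptor gene, had 14.35 and 14.86 in KO lines, against 12.80 and 12.54 in WT lines. For Dnmt3l, the cofactor of de novo DNA methylation, the signal was 16.85 and 16.80 in KO lines, against 15.66 and 15.24 in WT lines. Tfcp2l1, a naive-state factor, had 13.80 and 13.96 in KO lines, against 12.77 and 12.34 in WT lines. In each of these 4 the KO lines were above the WT lines, and limma adjusted p lay between 0.0645 and 0.0971. Dppa3, singled out after its value was seen as the single negative difference of the list, had a difference of -0.08.

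**Figure D4:**
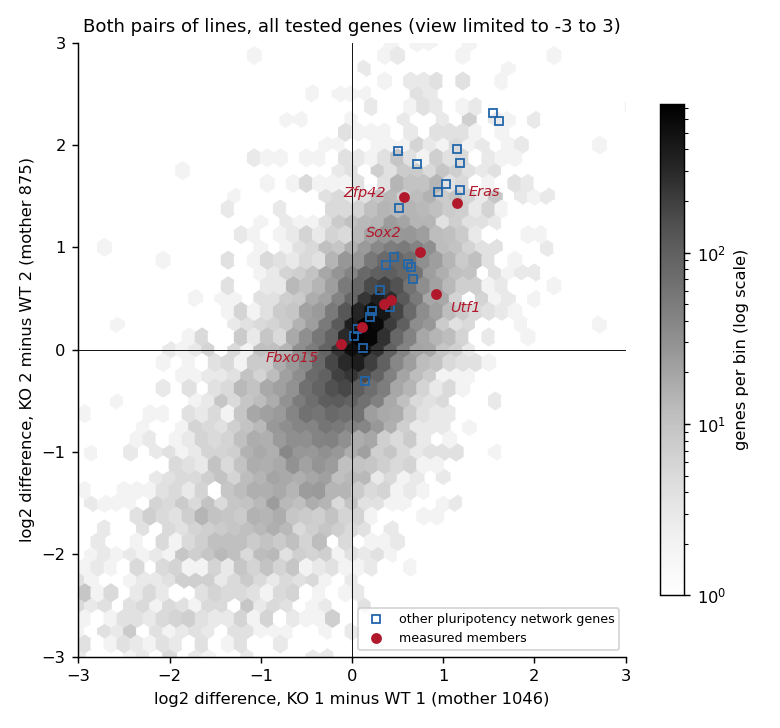
KO minus WT log2 differences within the pair of mother 1046 (horizontal) and the pair of mother 875 (vertical); grey hexagons count all tested genes on a log scale, red points are the 8 measured members and blue squares the other network genes. Of the members, 7 lie to the upper right of 0, and Fbxo15 lies at -0.12 and 0.057.

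Among ECAT genes, 8 of 10 were tested, with a median of 0.62. At an unadjusted p under 0.05 in limma, 5 were higher and 1 (Dppa2) lower, where the shares of all genes were 11.1% and 12.4%. After adjustment, where 0.176% of all genes rose and 1.67% fell, Dppa2 fell, 0 rose and 7 did not pass. Besides Eras and Fbxo15, these were Sox15, a SOX-factor gene expressed in ESCs, with a difference of 1.25, and Dppa4 with 0.55 (limma adjusted p of 0.111 and 0.154), as well as Dnmt3l, Gdf3 and Dppa5a. Of 12 genes known as targets of Oct4 and Sox2, 11 were tested and none passed, with a median of 0.45. At an unadjusted p under 0.05 in limma, 2 were higher and 2 lower, where the shares of all genes were 11.1% and 12.4%. Rest, a neuronal gene repressor, had 13.84 and 14.44 log2 signal in KO lines, against 12.95 and 13.17 in WT lines, and Stat3, the transcription factor of LIF signalling, differed by 0.53. Igfbp3, which binds insulin-like growth factors, had 10.07 and 9.20 in KO lines, against 11.95 and 12.46 in WT lines. Hoxb1 was well above background in both WT lines and in neither KO line, and was at least 2.67-fold lower in KO lines. Its probe was kept through the WT lines only, so its p rests on KO values not well above background. These 4 genes had limma adjusted p of 0.0789 to 0.144.

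Paralogues of the members did not stand higher as a group. Of 17 listed, 16 were tested, with a median of -0.14. At an unadjusted p under 0.05 in limma, 2 were higher and 2 lower, where the shares of all genes were 11.1% and 12.4%. After adjustment 0 rose, 1 fell and 15 did not pass, where 0.176% of all genes rose and 1.67% fell. The gene that fell was Sox4, a SOX-factor gene, with 8.41 and 8.37 log2 signal in KO lines, against 9.87 and 10.003 in WT lines (2.92-fold lower, limma adjusted p = 0.0371). That call was lost with the mother as a block and without any 1 of the 4 lines. Rras, of the Ras family that Eras belongs to, differed by -0.72, and the POU factor genes Pou2f1 and Pou2f2 by 0.56 and 1.16 (limma adjusted p of 0.134 to 0.186). Lin28b, the paralogue of Lin28a, differed by -0.54 (limma adjusted p = 0.287). No difference between a member and its paralogue was tested.

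Of 12 genes of the Lin28 and let-7 axis, 9 were tested and none passed (0 higher and 1 lower at an unadjusted p under 0.05 in limma). At that p the shares of all genes were 11.1% higher and 12.4% lower. The list median was -0.13, or 0.02 in the pair of mother 1046 and -0.32 in the pair of mother 875. Hmga2, a let-7 target and chromatin protein gene, had 11.05 and 10.12 log2 signal in KO lines, against 12.83 and 12.66 in WT lines (difference -2.16, limma adjusted p = 0.0946). The let-7 target Igf2bp3 differed by -1.07 and its paralogue Igf2bp1 by 0.18. Of 16 genes for chromatin complexes that partner Oct4 and Nanog, 15 were tested and none passed (1 higher and 0 lower at an unadjusted p under 0.05 in limma), with a median of 0.27. The smallest p were those of Parp1 (0.53), Wdr5 (0.41), Mta3 (0.51) and Arid1a (0.27), with limma adjusted p of 0.188 to 0.278.

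Of 8 ESC surface genes, all were tested and none passed, with a median of 0.11. At an unadjusted p under 0.05 in limma, 1 was higher and 1 lower, near the shares of all genes (11.1% and 12.4%). Fut4 was well above background in both WT lines (8.90 and 9.06) and in neither KO line (1.08 and 3.33). It was at least 51.9-fold lower in KO lines without passing (limma adjusted p = 0.0637). Its probe was kept through the WT lines only, so that p rests on KO values not well above background. Il6st, Lifr and Alpl, for the 2 LIF receptor chains and alkaline phosphatase, differed by 0.47, 0.76 and 0.64, with limma adjusted p of 0.208 to 0.382.

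**Figure D5:**
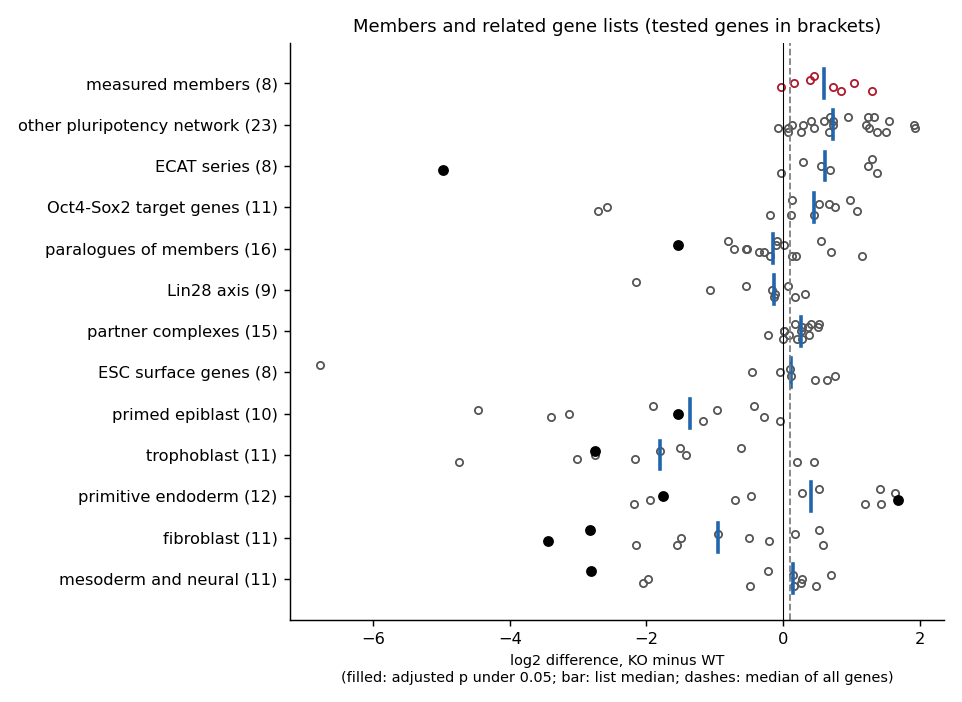
KO minus WT log2 difference of every tested gene in the members and related lists, with the number tested in brackets; filled points passed at an adjusted p under 0.05, blue bars are list medians and the dashed line is the median of all genes (0.10). Members (0.59) and network genes (0.72) have medians above that line, and primed epiblast (-1.36) and trophoblast (-1.79) genes below it.

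Markers of other cell types moved with the genotypes as follows, and their part in the members' differences was not tested. In limma, 0.176% of all genes rose and 1.67% fell, and 11.1% were higher and 12.4% lower at an unadjusted p under 0.05. At that unadjusted p, 1 trophoblast gene was higher and 7 lower, and 0 primed epiblast genes were higher and 5 lower. The counts were 2 and 4 for primitive endoderm, 0 and 2 for fibroblast, and 0 and 2 for mesoderm and neural genes. No call in these lists held with the mother as a block, or with genes above background on all 4 arrays. Of 11 trophoblast genes tested, 0 rose, 1 fell and 10 did not pass, with a median of -1.79. Their summed signal was 88121 and 68560 in KO lines, against 301913 and 396914 in WT lines, and Krt8 and Krt18 made up 71.7% to 92.2% of it. Without these, the brightest 2, the other 9 genes summed to 16206 and 19432 in KO lines, against 25785 and 31128 in WT lines. Of these 9, Tfap2c was the brightest in both KO lines, with 13.61 and 13.45 log2 signal, against 13.11 and 13.05 in WT lines. It therefore weighs most on their KO sums and goes the other way. Krt8, a keratin gene of simple epithelia, fell 6.72-fold (limma adjusted p = 0.0497). Its partner keratin gene Krt18 and the trophoblast factor genes Gata3 and Hand1 had differences of -2.16, -1.51 and -4.75, with limma adjusted p of 0.0505 to 0.0655. The KO values of Hand1, 4.24 and 5.53, were dim, where the lowest signal above background on those arrays was 3.24 and 3.32. Tfap2c and Ascl2, named after their values were seen, had positive differences, 0.45 and 0.21 (limma adjusted p of 0.179 and 0.401). Of 10 primed epiblast genes tested, 0 rose, 1 fell (Sox4) and 9 did not pass, with a median of -1.36 and a summed signal of 93366 and 73696 in KO lines, against 102486 and 103790 in WT lines. Pou3f1 and Dnmt3b, with differences of -0.28 and -0.05, made up 89.4% to 97.6% of that sum. The other 8 genes summed to 2270 and 1793 in KO lines, against 10817 and 10590 in WT lines. Here Fgf8, Fgf5 and Lef1 had differences of -3.14, -3.40 and -1.90, with limma adjusted p of 0.0563 to 0.0698.

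Of 12 primitive endoderm genes tested, Lama1, a laminin gene of basement membrane, rose 3.21-fold, Dab2, an endocytic adaptor gene, fell 3.37-fold and 10 did not pass (limma adjusted p of 0.0398 and 0.0381), with a median of 0.40. The collagen genes Col4a1 and Col4a2 differed by -2.18 and -1.94. Of the lineage genes, named after their values were seen, the receptor gene Pdgfra differed by 1.64 and the transcription factor genes Sox7, Sox17, Gata6 and Gata4 by 1.44, 1.42, 1.19 and 0.53, with limma adjusted p of 0.114 to 0.448. In all, 7 of the 12 were positive and 5 negative within both pairs, where the shares of all genes were 46.8% and 29.3%. The summed signal was 28445 and 26140 in KO lines, against 43303 and 42114 in WT lines, and the matrix genes Sparc and Lamb1, with differences of -0.70 and -0.46, made up 67.6% to 70.9% of it. Of 11 fibroblast genes tested, the matrix protease gene Mmp2 and the fibrillin gene Fbn1 fell 10.8-fold and 7.07-fold (limma adjusted p of 0.0223 and 0.0253), 0 rose and 9 did not pass. The list median was -0.95, but the pairs differed, with -1.29 for mother 1046 and 0.015 for mother 875. Col1a1 and Lum had differences of -1.56 and -2.16, and Lum was above background in only 1 KO line. Thy1, S100a4 and Dcn, named after their values were seen, had positive differences, 0.59, 0.52 and 0.18 (limma adjusted p of 0.509 to 0.821). In all, 3 fibroblast genes had a positive and 8 a negative difference, as did 12810 and 8829 of all 21639 genes. The summed signal of the 11 fibroblast genes was 19199 and 27660 in KO lines, against 39282 and 12165 in WT lines. The WT lines thus lay on both sides of the KO lines. S100a4 and Thy1 made up 58.7% to 88.3% of that sum, and the other 9 genes summed to 3374 and 3226 in KO lines, against 13121 and 5026 in WT lines. Of 11 mesoderm and neural genes tested, Mesp2, a mesoderm factor gene, fell 7.03-fold (limma adjusted p = 0.0173), 0 rose and 10 did not pass. Its KO values, 4.13 and 4.06, were dim, near the lowest signal above background on those arrays (3.24 and 3.32). The list median was 0.15, but -0.15 and -0.10 within the pairs of mothers 1046 and 875. Nes, Sox1 and Tubb3 had differences of -2.05, 0.70 and 0.48, and the sum was 10207 and 9487 in KO lines, against 13776 and 20402 in WT lines, of which Nes and Tubb3 made up 92.3% to 96.3%. Every tested gene of these 5 lists was above background in at least 1 KO line and at least 1 WT line.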

How the data were processed

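RNA of 4 ESC lines, 2 KO and 2 WT, grouped by their titles, was measured on 1-colour arrays. Per the file headers, the scans were read by Agilent Feature Extraction 10.7.3.1, and the processed intensity deposited by the authors is background-subtracted within each array and not scaled between arrays. The headers name build mm9, and symbols and promoters came from RefSeq tables of GRCm38.p6. The series table deposited by the authors holds log2 values, whose scale and quantile form were read from the values (median 6.55 in each column, correlation with the log2 processed signal of at least 0.9999). Its steps are not given in the sources used here.

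For each array the 75th percentile was subtracted from log2 processed signal and the mean percentile added back. Control spots and outlier flags were left out. A probe was kept if well above background on both arrays of a group, and the brightest stood for its gene. Of 41174 probes, 26690 matched 1 symbol and 14484 none. Genotypes were contrasted by limma 3.58.1 (R 4.3.3), without other terms and with Benjamini-Hochberg adjustment over 21639 genes. Equal line numbers mark a shared mother, so a fit with the mother as a block was made. Across genes, the mother difference in KO lines had a correlation of 0.19 with that in WT lines. The procedure was tested on simulated data. A bound sets dim values at the lowest signal above background on each array. Named genes outside the members were Dppa2, Dppa4, and in each list those called and the 4 with the smallest p. The members and lists were chosen with earlier results of these data known. Each line was derived separately and hybridised once, so p-values measure the spread between 2 lines per group.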

Additional observations from a re-analysis of the deposited data

Results flagged for a closer look

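The dimmer of the 2 Sall4 probes had KO minus WT differences of opposite sign in the 2 pairs of lines, -0.55 on the log2 scale for mother 1046 and 0.58 for mother 875. Fbxo15 also had opposite signs, -0.12 for mother 1046 and 0.057 for mother 875. With 1 line per genotype and mother, the difference between the pairs was not tested.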

How the results depend on the processing

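The arrays allow 2 lines per group, and this number limits the precision of every value. Across 15 other settings, Pou5f1, Sox2, Sall4, Utf1, Lin28a and Eras kept a positive difference. Sox2 ranged from 0.71 to 1.02, Eras from 1.16 to 1.46, Utf1 from 0.56 to 0.90, Sall4 from 0.24 to 0.63, Pou5f1 from 0.30 to 0.57 and Lin28a from 0.03 to 0.33. Median centring, which moved the median of all genes from 0.10 to 0.26, gave a call for 1 member (Eras), as did normexp with the 75th percentile (1, Eras), and an intensity trend with a robust prior gave 2 (Eras and Sox2). Normexp used the median spot signal, since the files analysed here give no mean signal. The sign turned for Zfp42 without KO replicate 2 (-0.28, range with 1 line left out -0.28 to 2.35) and for Fbxo15 under median centring (0.14) and without a line (range -0.17 to 0.10); among other genes named, it turned for Igf2bp1 (-0.034) and Xist (-0.48) with probes averaged, and for Xist without KO replicate 2 (-0.17, range with 1 line left out -0.17 to 1.63). The members' median was 0.50 under quantile scaling, 0.76 under median centring, 0.49 under normexp with quantiles, 0.49 in the deposited values, and 0.42 to 0.63 with 1 line left out. The network median was 0.61, 0.89, 0.61 and 0.60 under the same 4 settings and 0.57 to 0.88 with 1 line left out. Network calls numbered 2 under normexp with the 75th percentile, 2 with the trend, and 0 to 1 with 1 line left out.

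Over all genes, 361 were lower and 38 higher. With the mother as a block (the replicate block), and with genes above background on all 4 arrays, 0 were lower and 0 higher (2736 and 2278 at an unadjusted p under 0.05 in limma with the block, 2184 and 2444 with all 4 arrays). Higher calls numbered 69 under normexp with the 75th percentile, 10 with no filter on dim probes and 80 with the trend. Leaving out 1 line gave 0 to 679 lower and 0 to 64 higher, above 0 only without KO replicate 1. No member was called with or without the block, which called no gene at all. In these cases the cause was not tested.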

Other observations

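Over the 4 lines, the genes with a symbol outside all lists whose centred profile lay nearest to the mean profile of the 8 members were Rnf113a1, Rmnd5b, Gpr160, Ccdc166 and Mknk1, at distances of 0.023 to 0.045 log2 units among 14232 candidates. Rnf113a1, the nearest, had 12.02 and 12.36 log2 signal in KO lines, against 11.52 and 11.63 in WT lines. The distance covers 4 lines only and is a description. The mean profile is drawn toward Zfp42, which lay 2.01 log2 units from it, against 0.21 to 0.78 for the other members.

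On chromosome 8, 71.3% of the tested genes were higher in KO 2 than in KO 1, and 87.6% were higher in WT 2 than in WT 1. For genes of other chromosomes, or with no chromosome assigned, these shares were 52.5% and 50.6%.

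The brightest probe of Xist, the RNA of the inactive X chromosome, was above background in all 4 lines. It had 3.72 and 5.52 log2 signal in KO lines, against 3.65 and 4.12 in WT lines (difference 0.73, limma adjusted p = 0.541). The other Xist probes did not share this difference. They gave 3.89 and 3.84 in KO lines against 4.74 and 4.04 in WT lines, and 2.85 and 1.91 against 4.22 and 3.84. The last gave 2.33 and 4.26 against 3.60 and 3.40, above background only in KO 2 and WT 2. All these values are dim, and with probes averaged the sign turned. The highest signal of a Y-linked probe in WT 1 was 12.69, and in KO 1, KO 2 and WT 2 no Y-linked probe exceeded 1.38.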
